A study of Homo sapiens with 24 samples.

Results

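The early mevalonate pathway was followed through 9 genes, ACAT2, HMGCS1, MVK, PMVK, MVD, IDI1, FDPS, GGPS1 and FDFT1, which encode the enzymes that carry acetyl-CoA to squalene and to geranylgeranyl diphosphate. They were taken by gene symbol from a table of raw read counts, where all 9 were present among 26645 gene entries, and all 9 had enough reads to be tested. The cells were MB468 (MDA-MB-468), a triple-negative breast cancer line that does not proliferate when methionine (Met) is replaced by its precursor homocysteine (Hcy), and MB468res-R8, a single Met-independent clone that was derived from MB468 by prolonged culture in Hcy medium. The 0 h samples of each line grew in Met+ medium (Met at 100 µM). The others were collected 0.5, 2 or 12 h after cells were moved to Met-Hcy+ medium, in which 370 µM DL-homocysteine takes the place of Met. Both media held dialyzed serum, vitamin B12, glutamine and cysteine. There were 3 libraries for each of the 8 groups, 24 in all, and a 12 h group left in Met+ medium was not among them, so time in culture and the change of medium cannot be told apart within a line. Nothing states that the 3 libraries of a group were separate cultures, so p-values measure only the spread between these libraries.

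The mevalonate pathway builds isoprene units from acetyl-CoA. ACAT2, the cytosolic acetoacetyl-CoA thiolase, joins acetyl-CoA units, and HMGCS1 adds another to make HMG-CoA, the precursor of mevalonate. MVK and PMVK phosphorylate mevalonate in turn, MVD decarboxylates it to isopentenyl diphosphate, and IDI1 converts that to its isomer dimethylallyl diphosphate. FDPS builds farnesyl diphosphate, which stands at a branch: FDFT1 condenses it to squalene, the first committed intermediate of sterol synthesis, while GGPS1 extends it to geranylgeranyl diphosphate, the lipid attached to Rab and other small GTPases. Many of these genes are known targets of SREBP-2, a transcription factor that is released from the endoplasmic reticulum when sterols are low.

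Library totals ran from 11712531 to 36401605 counts on genes, with a median of 20451867, and spike-in RNA added 0.201 to 0.303% to them. All 8 epithelial and basal markers examined were abundant in every library (at least 1394 counts each, the lowest being KRT14). Of the receptors, PGR was at 0 to 2 counts, whereas ESR1 held 83 to 598 and ERBB2 766 to 3297. Of 9 markers of fibroblasts, leukocytes and endothelium, 4 (COL1A2, LUM, PTPRC and CD3E) had at most 7 counts in every library, COL1A1 had 313 to 2379, and their summed level went from 39.1 to 40.7 CPM (counts scaled to library size) in MB468 at 0 h to 20.7 to 21.9 at 12 h, whereas MB468res-R8 had 61.6 to 82.3 before and 41.5 to 51.4 at the last time point. A single library, replicate 2 of MB468 at 2 h, stood apart in 4 RNAs that lack poly(A) tails (RN7SK, RN7SL1, RMRP and RPPH1), with a summed 1620 CPM against at most 29.3 CPM in the other libraries. The results at 2 h are therefore also given without it. The part of these marker and RNA differences in the results below was not tested.

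Promoter sequences are shown for 3 genes that fell together at 12 h and for PMVK, the neighbouring step that fell much less. They come from RefSeq windows on GRCh38.p14 that reach from 250 bases before to 50 bases after an annotated start. For 7 of the 9 genes, 12 such windows were used. ACAT2 had no window to use, whereas FDFT1 was left out when the member windows were chosen. The counts of member windows below therefore cover neither gene, and whether FDFT1 would change them was not tested. Short motifs were searched on both strands: TCACNCCA, the core of the sterol regulatory element SRE-1, CCAAT, the site of the factor NF-Y, and GGGCGG, the GC box. The SRE-1 core was present in 1 of the 12 windows and in 3.95% of all 35116 windows of the same length, CCAAT in 7 of 12 and 34.6%, and the GC box in 11 of 12 and 45%. Windows of 1 gene can overlap each other, and a match of letters is a description, not a binding site. Only the longest stretch before the start that no exon of GENCODE v44 covers is printed, read on the strand of the gene, with CCAAT boxes (CCAAT or its reverse ATTGG) and the SRE-1 core in capitals.
HMGCS1, chr5:43313513-43313662, minus strand: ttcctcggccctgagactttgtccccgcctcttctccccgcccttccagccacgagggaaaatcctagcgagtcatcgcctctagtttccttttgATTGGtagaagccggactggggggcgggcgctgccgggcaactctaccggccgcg
MVK, chr12:109573581-109573792, plus strand: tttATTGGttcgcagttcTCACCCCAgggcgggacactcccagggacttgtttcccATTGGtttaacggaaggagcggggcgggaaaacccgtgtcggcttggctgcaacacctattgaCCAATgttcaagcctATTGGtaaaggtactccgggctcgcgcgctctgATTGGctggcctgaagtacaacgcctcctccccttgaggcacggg
MVD, chr16:88663162-88663297, minus strand: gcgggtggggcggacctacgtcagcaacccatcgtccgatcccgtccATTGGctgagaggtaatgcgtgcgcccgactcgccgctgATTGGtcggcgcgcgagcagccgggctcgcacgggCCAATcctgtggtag
PMVK, chr1:154936720-154936969, minus strand: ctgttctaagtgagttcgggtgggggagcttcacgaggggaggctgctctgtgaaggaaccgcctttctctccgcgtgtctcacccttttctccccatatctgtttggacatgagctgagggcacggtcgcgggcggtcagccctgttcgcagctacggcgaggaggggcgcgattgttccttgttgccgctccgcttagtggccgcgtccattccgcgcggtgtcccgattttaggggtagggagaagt
The printed stretch of MVK holds 5 CCAAT boxes and the SRE-1 core, that of MVD 3 CCAAT boxes and that of HMGCS1 1, with a second box just beyond it in the same window. The other HMGCS1 window, which is not printed, holds 0 CCAAT boxes. The PMVK window holds neither motif. The windows of FDPS and IDI1, which are not printed, hold 3 and from 0 to 3 CCAAT boxes, and those of GGPS1 hold at most 1.

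In Met+ medium the enzymes of the pathway were expressed at unequal levels per length. RPKM (reads scaled to exon length and library size) in MB468 at 0 h was highest for FDFT1, 134 ± 3.25 (mean ± SD, n = 3), and FDPS, 117 ± 3.49, the enzymes that use and make farnesyl diphosphate. ACAT2 followed at 101 ± 2.4, MVD at 89.6 ± 0.807 and HMGCS1 at 76.3 ± 2.04. IDI1 stood at 65.4 ± 0.667 RPKM and PMVK at 45.5 ± 0.639, while GGPS1, at 16.6 ± 0.207, and MVK, at 9.58 ± 0.202, were the lowest. The replicate ranges of neighbours in this order did not overlap, and the highest level was 14 ± 0.22 times the lowest. With the longest transcript in place of the summed exons as length, ACAT2 and MVD changed places. GGPS1 and MVK were then nearly equal, at 21.8 and 21 RPKM, so the gap between these 2 genes depended on the length used. In MB468res-R8 at 0 h the order began with FDPS, 107 ± 5.07, and FDFT1, 98.1 ± 0.124, and ended likewise with GGPS1, 17.3 ± 0.348, and MVK, 7.77 ± 0.536, whereas ACAT2 and HMGCS1 came just before these at 51.4 ± 1.24 and 37.5 ± 0.918.

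**Figure D1:**
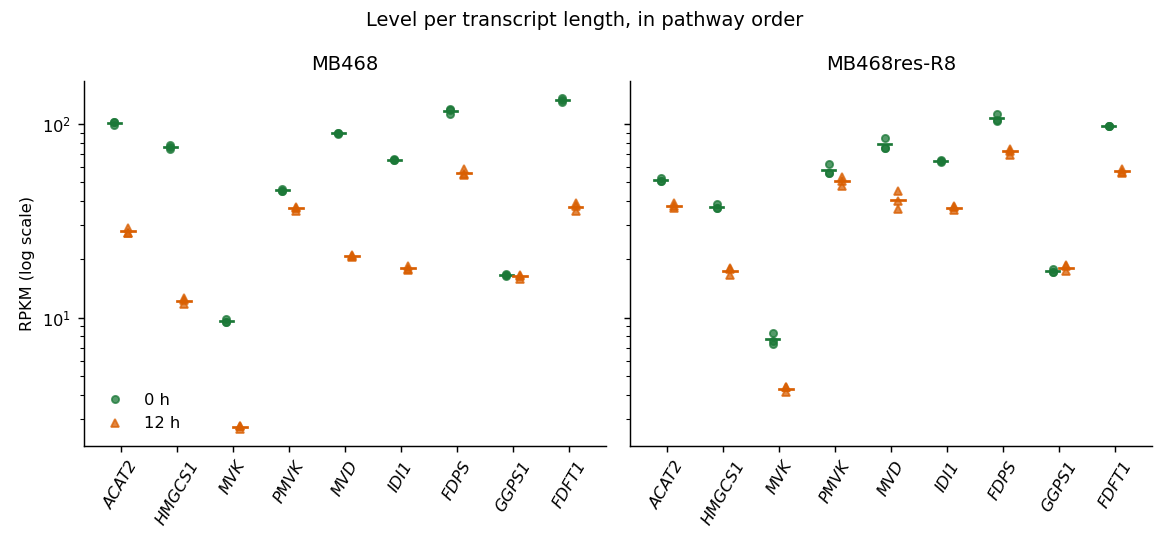
RPKM on a log axis for the 9 genes in pathway order, MB468 on the left and MB468res-R8 on the right; green circles are the 3 libraries at 0 h, orange triangles those at 12 h in Met-Hcy+ medium, and bars are means. In MB468 at 0 h the means ran from 9.58 (MVK) to 134 (FDFT1), and GGPS1 is the gene whose 0 h and 12 h values overlapped in both lines.

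The first comparison asked whether the lines differ before any stress. In Met+ medium, MB468res-R8 expressed 6 of the 9 genes at lower levels than MB468, most of all the first steps of the pathway, and PMVK at a higher level. Of all 14739 genes tested, 28.3% were called lower and 25.3% higher in this comparison (edgeR's quasi-likelihood test, Benjamini-Hochberg adjusted p under 0.05, the rule for every call here). ACAT2 had 5925, 6157 and 6188 normalized counts (counts scaled to a common library size) in MB468 and 3171, 3043 and 3041 in MB468res-R8. HMGCS1 had 11220, 11490 and 11830 in MB468 and 5585, 5821 and 5579 in MB468res-R8. The groups lay far apart for both genes, with ACAT2 in MB468res-R8 at 50.7% (log2 fold change -0.98 ± 0.0425 SE, adjusted p = 4.23e-22) and HMGCS1 at 49.2% of MB468 (-1.02 ± 0.0413, adjusted p = 3.98e-23). FDFT1 was at 73.3% (-0.45 ± 0.037, adjusted p = 1.87e-13) and MVK at 81.2% (-0.30 ± 0.0543, adjusted p = 1.01e-05). MVD and FDPS were only slightly lower, by log2 fold changes of -0.19 (adjusted p = 0.0283) and -0.13 (adjusted p = 0.0092), and each lost the call in some fits that left out 1 library. PMVK had 1025, 1033 and 1054 normalized counts in MB468 and 1282, 1275 and 1424 in MB468res-R8, 1.28-fold higher (0.35 ± 0.0585, adjusted p = 2.4e-06). When libraries were scaled to the spike-ins, which moved the median of all genes to -0.311 in this comparison, PMVK was no longer called (0.061) and IDI1 was called lower (-0.319). IDI1 (-0.02, adjusted p = 0.659) and GGPS1 (0.07, adjusted p = 0.259) were not called with the usual scaling.

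With the usual scaling, the log2 difference of ACAT2 between the lines was -0.98 at 0 h, at 0.5 h and at 2 h, and that of HMGCS1 -0.97 at 0.5 h and -0.89 at 2 h. With spike-in scaling the difference of ACAT2 was -1.28, -1.03 and -0.90 at these times and that of HMGCS1 -1.32, -1.02 and -0.82, and each was called. At 0.5 h, 6 members were called lower and 1 higher in MB468res-R8, against 24.5% of all genes in either direction, and 5 lower and 1 higher at 2 h, against 29.5% and 26.6%. The counts at 2 h were the same without the library that stood apart.

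The largest changes came at 12 h. In MB468, 8 of the 9 genes were lower at 12 h in Met-Hcy+ medium than at 0 h, and 7 of them were reduced at least 2-fold. Of all genes tested, 36% were called lower and 8.85% were called lower by at least 2-fold; 5305 of the 10402 calls were lower, and with spike-in scaling 5921 of 8459. The 9 log2 fold changes had a median of -1.84, against -0.02 over all genes. The summed CPM of the 9 genes went from 2788 ± 41.8 to 852.3 ± 20.8 (SD, n = 3). In bulk RNA, fewer cells that express a gene and less of its RNA per cell cannot be told apart. Of the 9 markers of other cell types, 5 could be tested at 12 h against 0 h: 1 was called higher and 1 lower in MB468, and 1 higher and 2 lower in MB468res-R8. The fibroblast marker COL1A1 had -1.20 in MB468 and -0.95 in MB468res-R8, both called, and the macrophage marker CD68 0.00 and 0.77, the latter called. The endothelial marker PECAM1 had 0.81, called, and 0.23, and VWF -0.06 and -2.67, the latter called on 1 to 4 counts at 12 h.

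HMGCS1, which makes HMG-CoA, fell most among the 9. Its normalized counts in MB468 were 11220, 11490 and 11830 at 0 h and 1767, 1903 and 1860 at 12 h. Thus 16% remained in the parental line (log2 fold change -2.64 ± 0.0441, adjusted p = 8.83e-36), which placed HMGCS1 at rank 62 from the lowest of 14739 genes. In MB468res-R8 the counts were 5585, 5821 and 5579 at 0 h and 2491, 2714 and 2675 at 12 h, so that 46.4% remained (-1.11 ± 0.0431, adjusted p = 1.74e-23). It was the only member that was reduced at least 2-fold in MB468res-R8. The other gene of the first steps, ACAT2, is described beside it: its 12 h values in MB468 were 1651, 1736 and 1644, or 27.5% of 0 h (-1.86 ± 0.0437, adjusted p = 5.13e-31). In MB468res-R8 they were 2221, 2343 and 2277, or 73.8% (-0.44 ± 0.044, adjusted p = 3.08e-11).

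The kinases and the decarboxylase between mevalonate and isopentenyl diphosphate did not move as a unit. MVK went from 1950, 1937 and 2015 normalized counts in MB468 to 543.2, 561.6 and 564 at 12 h, or 28.3% (-1.82 ± 0.0581, adjusted p = 7.94e-27). MVD went from 9697, 9651 and 9529 to 2254, 2209 and 2232, or 23.2% (-2.11 ± 0.074, adjusted p = 1.54e-16), the second largest decrease among the members. PMVK, the enzyme between them, went from 1025, 1033 and 1054 to 842.9, 810.8 and 855.1. It kept 80.8% of its level (-0.31 ± 0.059, adjusted p = 1.53e-05), a small decrease whose groups nevertheless did not overlap. In MB468res-R8, MVK retained 55.2% (-0.86 ± 0.0576, adjusted p = 4.14e-16), MVD 51.6% (-0.95 ± 0.0715, adjusted p = 1.84e-10) and PMVK 87.4% (-0.19 ± 0.0579, adjusted p = 0.0037). The PMVK call in MB468res-R8 was lost with spike-in scaling (adjusted p = 0.219 there, and 5.51e-04 to 0.024 in the other alternatives that did not leave out a library).

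The isomerase and the prenyl diphosphate synthases came next. IDI1 fell in MB468 from 6470, 6354 and 6359 normalized counts to 1731, 1734 and 1808, or 27.5% (-1.86 ± 0.0418, adjusted p = 1.06e-31), and in MB468res-R8 from 6416, 6198 and 6270 to 3511, 3675 and 3651, or 57.4% (-0.80 ± 0.0404, adjusted p = 6.36e-20). The lines had nearly equal IDI1 levels at 0 h and did not overlap at 12 h. FDPS fell less, to 48% in MB468 (-1.06 ± 0.0427, adjusted p = 1.4e-23) and 67.5% in MB468res-R8 (-0.57 ± 0.0425, adjusted p = 1.07e-14).

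The genes on either side of the branch at farnesyl diphosphate diverged. FDFT1, on the sterol side, went from 15110, 15500 and 15860 normalized counts to 4096, 4351 and 4545 in MB468, or 28% (-1.84 ± 0.0384, adjusted p = 8.51e-33). In MB468res-R8 it went from 11360, 11340 and 11340 to 6461, 6545 and 6784, or 58.1% (-0.78 ± 0.0376, adjusted p = 1.61e-20). GGPS1, on the geranylgeranyl side, had 1415, 1440 and 1450 at 0 h and 1442, 1378 and 1429 at 12 h in MB468, and 1484, 1539 and 1490 against 1503, 1623 and 1596 in MB468res-R8. The groups overlapped in both lines, and the log2 changes were -0.02 (95% interval -0.116 to 0.083, adjusted p = 0.779) and 0.06 (-0.036 to 0.165, adjusted p = 0.265). Spike-in scaling, which moved the median of all genes in MB468 to -0.229, gave GGPS1 a value of -0.232.

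**Figure D2:**
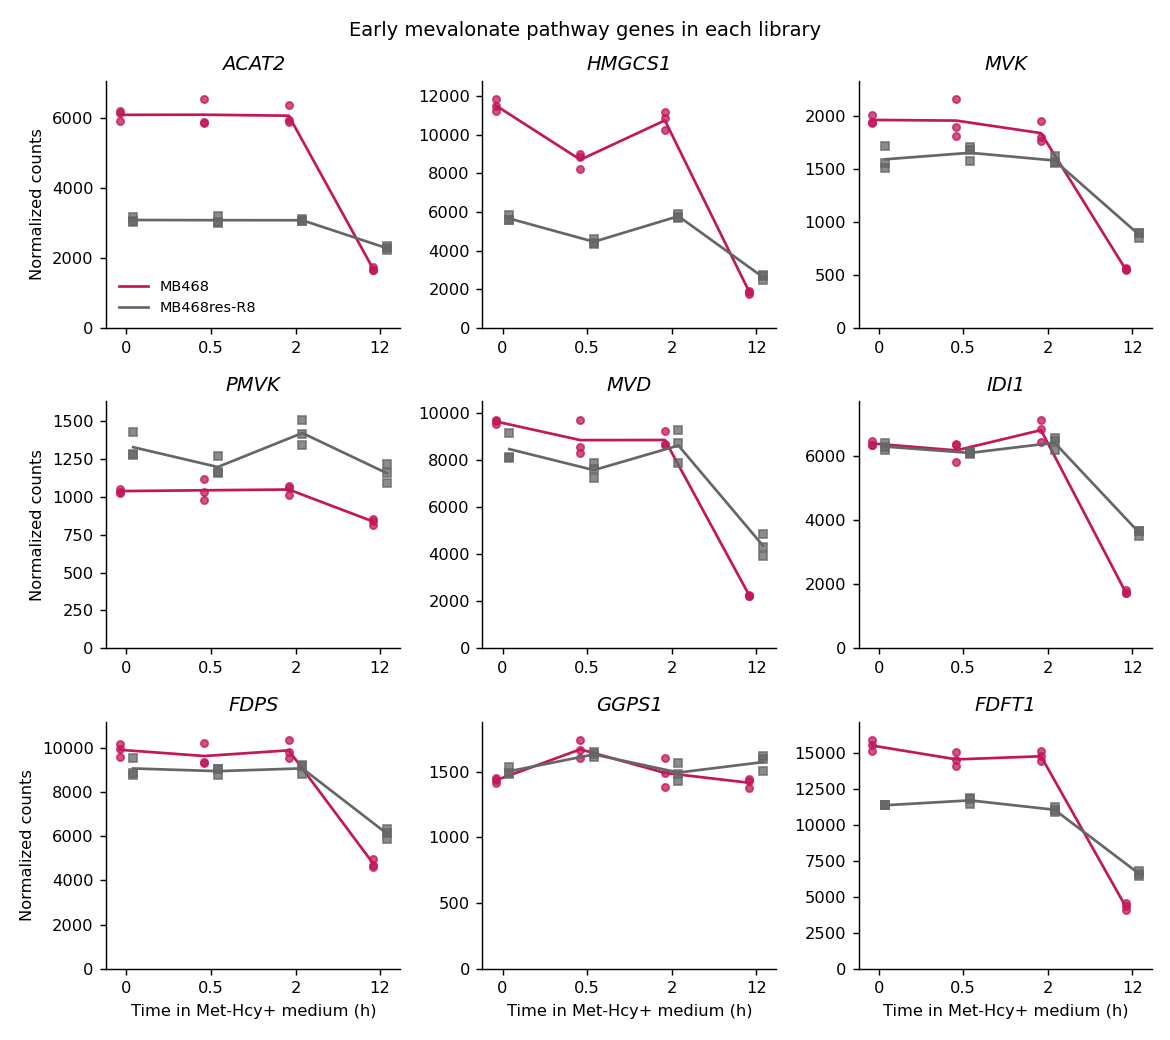
Normalized counts (linear axes from 0) of the 9 genes against hours in Met-Hcy+ medium, spaced evenly; magenta circles are the 3 MB468 libraries at each time, gray squares the 3 MB468res-R8 libraries, and lines join the group means. HMGCS1 dipped at 0.5 h in both lines and fell to 1767 to 1903 in MB468 at 12 h, whereas GGPS1 stayed between 1378 and 1741 in that line.

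In MB468res-R8, 8 of the 9 genes were called lower at 12 h, where 29.7% of all genes were, and 1 was lower by at least 2-fold, against 7.96% of all genes. The median of the 9 genes was -0.78, against 0.00 over all genes, and their summed CPM went from 2123 ± 49.7 to 1283 ± 20.1. All members but GGPS1 were thus called lower in both lines. Whether the size of the response differed was tested directly as the difference of the log2 fold changes, MB468res-R8 minus MB468. In this test 7 of the 9 genes were called higher, against 28.7% of all genes. HMGCS1 differed most, by 1.54 ± 0.0605 (adjusted p = 5.98e-23), followed by ACAT2, by 1.42 ± 0.0616 (adjusted p = 8.51e-22), and MVD, by 1.15 ± 0.101 (adjusted p = 2.91e-09). IDI1 (1.06 ± 0.0576, adjusted p = 9.9e-19), FDFT1 (1.06 ± 0.0531, adjusted p = 9.33e-20) and MVK (0.97 ± 0.0818, adjusted p = 4.04e-13) differed by nearly the same amount, and FDPS by 0.49 ± 0.06 (adjusted p = 3.85e-09). For PMVK the difference was 0.11 (95% interval -0.055 to 0.28, adjusted p = 0.254) and for GGPS1 0.08 (-0.061 to 0.223, adjusted p = 0.338), so that a difference was not shown for either, and their intervals reach 0.28 and 0.223.

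**Figure D3:**
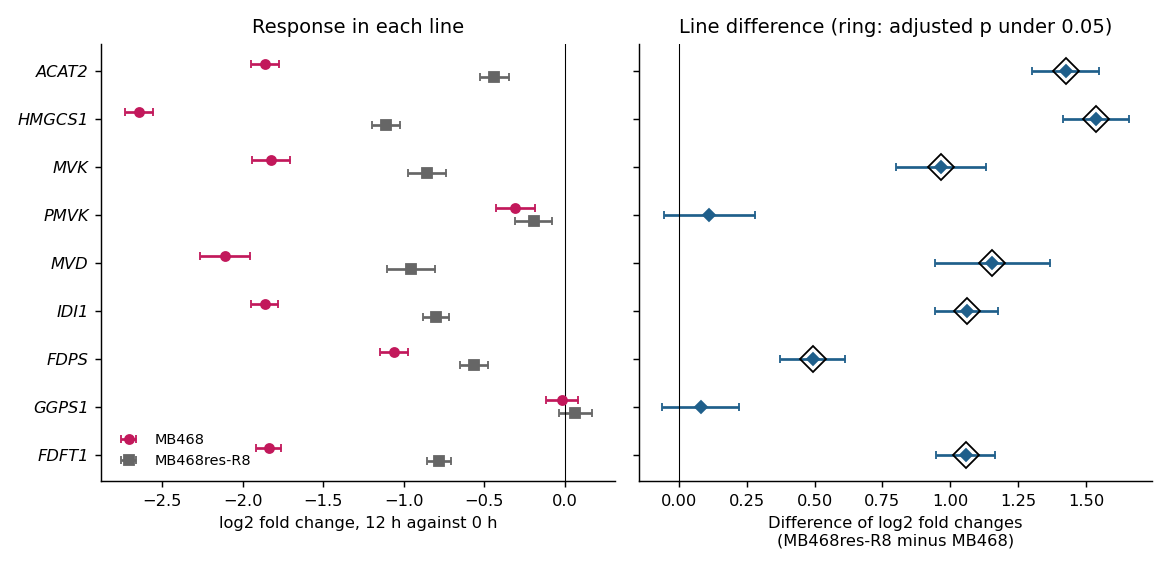
Left, log2 fold changes at 12 h against 0 h with 95% intervals, MB468 as magenta circles and MB468res-R8 as gray squares; right, their difference (MB468res-R8 minus MB468) with 95% intervals, rings marking an adjusted p under 0.05. The 7 ringed differences ran from 0.49 (FDPS) to 1.54 (HMGCS1), and PMVK and GGPS1 lie near 0.

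The order of the lines was thereby turned for the genes that had been lower in MB468res-R8 at 0 h. At 12 h all 9 genes were called higher in MB468res-R8 than in MB468, against 35.6% of all genes. The difference was largest for IDI1 (2.05-fold, log2 1.04 ± 0.042, adjusted p = 9.25e-24) and MVD (1.95-fold, 0.97 ± 0.0737, adjusted p = 1.13e-10). ACAT2 and HMGCS1, which had stood at 50.7 and 49.2% of the parental level at 0 h, were 1.36-fold (0.44, adjusted p = 1.29e-11) and 1.43-fold higher (0.51, adjusted p = 2.08e-13). GGPS1 was the smallest, 1.11-fold (0.15, adjusted p = 0.00635), and was no longer called when replicate 2 of MB468 or replicate 2 or 3 of MB468res-R8 at 12 h was left out (0.098 to 0.109) or with spike-in scaling. In RPKM at 12 h, FDPS was highest in both lines, 56.1 ± 2.11 in MB468 and 72.3 ± 2.77 in MB468res-R8. PMVK was next after FDFT1 at 36.7 ± 1 in MB468, where the ranges of both overlapped (FDFT1 37.4 ± 1.95), and MVK was again lowest at 2.71 ± 0.0557 and 4.29 ± 0.146. HMGCS1, above IDI1, PMVK and GGPS1 in MB468 at 0 h, was below all of them at 12 h.

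Smaller changes were seen at the early time points. At 0.5 h HMGCS1 was already lower in both lines, while ACAT2, MVK, IDI1 and FDPS were not called in either by edgeR. MVD (-0.13 in MB468 and -0.16 in MB468res-R8) was not called in the main edgeR fit. In MB468res-R8 it was called by DESeq2 (-0.176, adjusted p = 0.0255). It was also called there by edgeR with at least 10 counts in every library (adjusted p = 0.0467) and with only the groups compared (adjusted p = 0.0146). In MB468, edgeR called MVD with only the groups compared (adjusted p = 0.0387) and with spike-in scaling (-0.334, adjusted p = 0.0426). In MB468, 2 members were called lower and 1 higher at 0.5 h, against 17.8% and 16.3% of all genes, and in MB468res-R8 2 were called lower, against 16.2%. HMGCS1 had 9020, 8854 and 8238 normalized counts in MB468 at 0.5 h against 11220 to 11830 at 0 h, and 4356, 4420 and 4602 in MB468res-R8 against 5579 to 5821. The groups did not overlap in either line, and 75.7% (log2 -0.40 ± 0.0407, adjusted p = 1.53e-10) and 78.7% (-0.34 ± 0.042, adjusted p = 1.01e-08) of the level remained. The call in MB468res-R8 was lost with spike-in scaling (-0.303, adjusted p = 0.105) and kept in the other 9 settings that left out no library, with an adjusted p of at most 2.78e-08.

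GGPS1 was the member called higher at 0.5 h. It had 1604, 1741 and 1669 normalized counts in MB468 against 1415 to 1450 at 0 h, 1.16-fold higher (log2 0.22 ± 0.0503, adjusted p = 0.000581), and with spike-in scaling its value was 0.018 and not called. In MB468res-R8 it was 0.12 (adjusted p = 0.0637) with groups that did not overlap. FDFT1 in MB468 (-0.09, adjusted p = 0.0455) and PMVK in MB468res-R8 (-0.15, adjusted p = 0.0454) passed the threshold narrowly. The FDFT1 call was lost in 5 of the 6 fits that left out 1 library, in which its adjusted p was up to 0.226, and the PMVK call in 3 of 6, those without replicate 3 at 0 h or replicate 1 or 3 at 0.5 h (adjusted p up to 0.243). The difference between the lines at 0.5 h was called for 0 members by edgeR, by DESeq2 as well, with 1 (FDFT1) at an unadjusted p under 0.05, against 3.01% of all genes.

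At 2 h the members were near their starting levels with the usual scaling. In MB468, MVD (-0.12, 95% interval -0.269 to 0.024) and FDFT1 (-0.07, -0.146 to 0.004) had groups below those at 0 h without overlap. HMGCS1 in MB468 did too, as did FDFT1 in MB468res-R8 (-0.04). MVD in MB468 had been at -0.13 at 0.5 h. None of the 9 was called against 0 h in either line in the main edgeR fit or by DESeq2. In the main fit 16.5% of all genes in MB468 and 4.34% in MB468res-R8 were called. There, 2 members in MB468 (HMGCS1 and IDI1) and 0 in MB468res-R8 had an unadjusted p under 0.05. HMGCS1 had 10230, 11150 and 10840 normalized counts in MB468 and 5915, 5722 and 5709 in MB468res-R8, which were -0.10 (95% interval -0.182 to -0.018) and 0.03 (-0.054 to 0.114) from 0 h on the log2 scale. Without the library that stood apart the value in MB468 was -0.124, again not called, and the count of called members was 0. With spike-in scaling, all 9 members were called lower in MB468 at 2 h, by -0.326 (IDI1) to -0.537 (MVD), beside a median of -0.415 over all genes, of which 9269 of 9509 calls were lower. The line difference at 2 h was called for 0 members by edgeR and DESeq2, with 1 (HMGCS1) at an unadjusted p under 0.05, against 5.09% of all genes.

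The return of HMGCS1 between 0.5 and 2 h was tested in a comparison added after the data had been seen. HMGCS1 rose 1.23-fold in MB468 (log2 0.30 ± 0.041, adjusted p = 1.24e-07) and 1.3-fold in MB468res-R8 (0.38 ± 0.0419, adjusted p = 1.18e-09). In MB468, 2 members were called higher in this comparison (HMGCS1 and IDI1, 0.14) and 1 lower (GGPS1, -0.16), against 17% and 15.7% of all genes, and without the library that stood apart the counts were the same. In MB468res-R8, HMGCS1, PMVK (0.25) and MVD (0.19) were called higher and GGPS1 (-0.13) lower, against 17% and 18.3%. The calls of MVD (adjusted p = 0.0407) and GGPS1 (adjusted p = 0.0381) in MB468res-R8 were fragile: of 6 fits that left out 1 library MVD lost its call in 4 (those without replicate 1 or 2 at either time) and GGPS1 in 5 (all but that without replicate 1 at 2 h), and GGPS1 was not called by DESeq2 (adjusted p = 0.0675). In MB468, IDI1 lost its call without replicate 3 at 0.5 or 2 h (adjusted p = 0.088 and 0.094), and GGPS1 without replicate 2 at 0.5 h or replicate 1 at 2 h (adjusted p = 0.0875 and 0.161). Spike-in scaling removed the HMGCS1 call in both lines, where its adjusted p was 0.617 in MB468 and 0.11 in MB468res-R8. From 2 to 12 h, 8 members were called lower in MB468, against 36.1% of all genes, and 8 in MB468res-R8, against 30.3%, with medians of -1.77 and -0.74. PMVK lost its call with spike-in scaling in both lines (-0.125, adjusted p = 0.448, and -0.259, adjusted p = 0.105), which left 7 in each. With this scaling 2872 of all 14739 genes were called lower in MB468 and 3049 in MB468res-R8. With the usual scaling, most of the decrease thus came after 2 h in both lines, and HMGCS1 passed through a dip and a return before it.

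**Figure D4:**
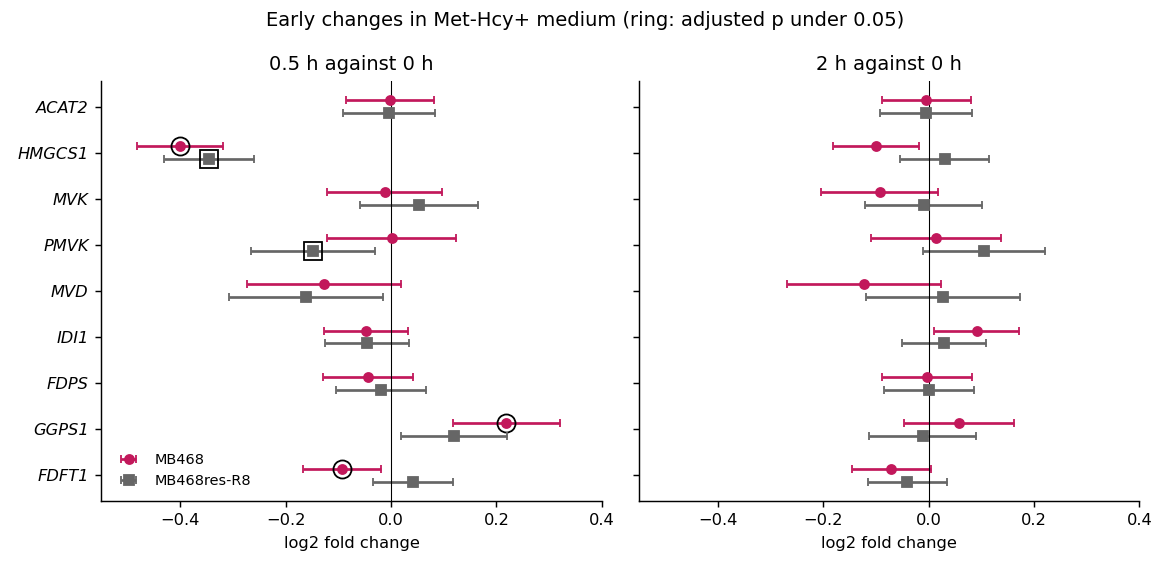
Log2 fold changes with 95% intervals at 0.5 h (left) and 2 h (right) against 0 h, MB468 as magenta circles and MB468res-R8 as gray squares, rings marking an adjusted p under 0.05. HMGCS1 is ringed in both lines at 0.5 h (-0.40 and -0.34), and no point is ringed at 2 h.

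Genes around the pathway were grouped by lists of known function. The steps after squalene moved the same way as the members at 12 h. Of 12 genes from squalene to cholesterol, 12 were called lower in MB468 and 11 in MB468res-R8, with medians of -1.40 and -0.52, and all 12 line differences were called higher. Over all genes, 36% were called lower in MB468 and 29.7% in MB468res-R8, and 28.7% of line differences were called higher. SQLE, which oxidizes squalene, went from 10020, 9858 and 9717 normalized counts to 2924, 3209 and 2926 in MB468 (-1.71 ± 0.043, adjusted p = 3.37e-30) and fell by 0.63 on the log2 scale in MB468res-R8 (adjusted p = 4.21e-16). MSMO1, a sterol methyl oxidase, fell by 2.15 and 1.04, and CYP51A1, the lanosterol demethylase, by 1.43 and 0.66. LBR, the lamin B receptor, which has sterol reductase activity, went the other way in MB468res-R8 (0.25, adjusted p = 2.82e-05) and fell by 0.36 in MB468. With spike-in scaling the counts called lower were 12 in MB468 and 10 in MB468res-R8, beside 5921 and 3121 of all 14739 genes. LBR in MB468res-R8 was not called with this scaling (0.266, adjusted p = 0.0895).

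Regulators of the pathway were less uniform. Of 12 genes of SREBP processing, SREBP targets and LDL uptake, MB468 had 7 calls down and 3 up, and MB468res-R8 8 down and 1 up, with medians of -1.005 and -0.78. Over all genes, 36% were called lower and 34.6% higher in MB468, and 29.7% lower and 32% higher in MB468res-R8. SREBF1 and SREBF2, which encode the SREBPs, fell by 1.27 and 0.75 in MB468 and by 0.71 and 0.84 in MB468res-R8, and only for SREBF1 was the line difference called (0.55, adjusted p = 9.28e-09; SREBF2 -0.09, adjusted p = 0.22). MYLIP, a ubiquitin ligase for the LDL receptor, was higher in both lines (0.55, adjusted p = 1.93e-08, and 0.36, adjusted p = 0.000108). INSIG1, which retains SREBP in the endoplasmic reticulum and was picked out after its values were seen, had the lowest value of the list, -3.40 in MB468 and -2.29 in MB468res-R8. With spike-in scaling, 7 genes were called lower and 1 higher in each line. Over all 14739 genes, 5921 of 8459 calls were lower in MB468 with this scaling, and 3121 of 5884 in MB468res-R8.

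Genes that supply or use acetyl-CoA in the cytosol were also lower at 12 h. In each line 4 of 5 were called lower and 0 higher, with medians of -1.23 in MB468 and -0.47 in MB468res-R8. Over all genes, 36% were called lower in MB468 and 29.7% in MB468res-R8. ACLY, which makes cytosolic acetyl-CoA from citrate, fell by 1.23 and 0.37, the citrate carrier SLC25A1 by 1.25 and 0.47, and fatty acid synthase FASN by 1.72 and 0.72. ACSS2, which makes acetyl-CoA from acetate, fell by 0.90 in MB468 and more, by 1.22, in MB468res-R8 (line difference -0.33, adjusted p = 0.00776; -0.109 and not called with spike-in scaling). Of 4 mitochondrial or second-copy counterparts of the members, 3 could be tested, and 3 were called lower in MB468 and 1 lower and 1 higher in MB468res-R8. The counts in MB468res-R8 were near the shares over all genes there, 29.7% lower and 32% higher. ACAT1, the mitochondrial thiolase, fell by 0.60 in MB468 and rose by 0.25 in MB468res-R8, a call lost with spike-in scaling (0.256, adjusted p = 0.105). IDI2 was called in MB468 only (-0.41, against -0.08; the difference of 0.33 had an adjusted p = 0.0997).

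The enzymes that use isoprenoids for other ends did not share the decrease. Of 16 such genes, 9 were called higher and 2 lower in MB468 at 12 h, and 12 higher and 2 lower in MB468res-R8, with medians of 0.26 and 0.31, against 34.6% of all genes higher in MB468 and 32% in MB468res-R8. With spike-in scaling the counts were 5 higher and 3 lower in MB468, and 7 higher and 1 lower in MB468res-R8. Over all 14739 genes, 5921 of 8459 calls were lower in MB468 with this scaling, and 3121 of 5884 in MB468res-R8. COX10, which farnesylates heme on the way to heme A, rose by 0.99 in MB468 (adjusted p = 4.47e-16) and 0.35 in MB468res-R8. DOLK, the dolichol kinase, rose by 0.86 and 0.29 (the latter lost with spike-in scaling), and DHDDS, a subunit of the enzyme that builds the dolichol chain, rose by 0.52 in MB468 and was 0.00 in MB468res-R8 (adjusted p = 0.944). RABGGTB, a subunit of the transferase that attaches the product of GGPS1 to Rab proteins, went in opposite directions in the 2 lines. It had 2742, 2686 and 2740 normalized counts at 0 h and 1576, 1662 and 1599 at 12 h in MB468 (-0.76, adjusted p = 9.33e-18), against 1908, 2017 and 1958 and then 3554, 3717 and 3571 in MB468res-R8 (0.88, adjusted p = 2.23e-19), a line difference of 1.64 ± 0.0656 (adjusted p = 8.76e-23).

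**Figure D5:**
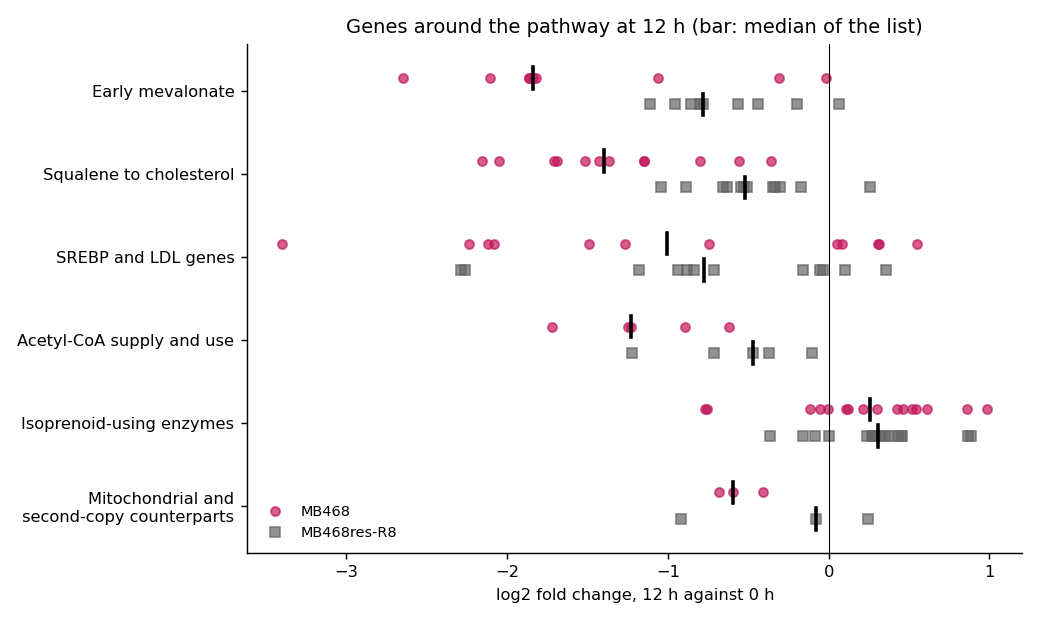
Log2 fold changes at 12 h against 0 h for the genes of each list (1 point per tested gene), MB468 as magenta circles and MB468res-R8 as gray squares, with a black bar at the median. The medians in MB468 ran from -1.84 (the 9 members) to 0.26 (isoprenoid-using enzymes).

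Across the 24 libraries the members tracked each other to different degrees. Pearson's correlation of a gene's log2 CPM with the mean of the other 8 was 0.994 for FDFT1, 0.988 for MVK, 0.985 for FDPS, 0.974 for MVD and 0.952 for IDI1. It was 0.927 for HMGCS1 and 0.863 for ACAT2, whose offset between the lines is not shared by all, and 0.988 and 0.998 for these within the 12 libraries of MB468. PMVK had 0.397 over all libraries but 0.95 within MB468 and 0.611 within MB468res-R8. GGPS1 had 0.232, with 0.408 and -0.3 within the lines. These values describe 8 groups that share their time points and libraries. The genes averaging 3 or more in log2 CPM numbered 9874, members included. Of the non-members among them, the 5 most like the mean of the members over the 24 libraries included TIMELESS (0.991), ANAPC16 (0.988), DOCK11 (0.987) and CYP51A1 (0.987). With Spearman's correlation 2 of the 5 were again in the top 5, and with the 8 group means 1.

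Several members lie beside or across other genes, which matters since the library kit does not mark the strand. All positions are on GRCh38 (GENCODE v44). ACAT2 (chromosome 6, 159762045 to 159779112) shares 454 exonic bases, 17.2% of its exons, with TCP1 on the opposite strand. TCP1, a subunit of a chaperonin, went from 12150, 12230 and 11270 normalized counts to 8905, 8901 and 8920 in MB468 at 12 h (-0.42) and from 9225, 9099 and 9331 to 13910, 14310 and 14110 in MB468res-R8 (0.61), while ACAT2 was lower in both lines. FDPS (chromosome 1, 155308748 to 155320666) shares 18.6% of its exons with RUSC1-AS1, which was too low to be tested, and IDI1 (chromosome 10, 1039152 to 1049119) 15% with IDI2-AS1. Pseudogenes named after FDPS (8) and IDI1 (3) are annotated as well, so reads of these 2 genes may have been split among copies. GGPS1 (chromosome 1, 235327350 to 235344532) shares 37.3% of its exons with another protein-coding model on its own strand, ENSG00000285053, and HMGCS1 (chromosome 5, 43287470 to 43313512) 37.7% with an antisense transcript, ENSG00000261604. MVK (chromosome 12, 109573255 to 109598125) starts 325 bases from MMAB, which encodes an enzyme of cobalamin metabolism and is read in the opposite direction. MMAB went from 1179, 1307 and 1305 normalized counts to 535.3, 523.1 and 490.6 in MB468 (-1.29, adjusted p = 9.76e-21) and from 1115, 1207 and 1072 to 756.7, 646.6 and 739.4 in MB468res-R8 (-0.66, adjusted p = 1.16e-11). Like MVK, it fell in both lines with groups that did not overlap, and the line difference was 0.63 ± 0.0902 (adjusted p = 1.33e-07). SNAI3-AS1 starts 137 bases from MVD, WDR37 419 from IDI1, SOD2 484 from ACAT2 and ARID4B 869 from GGPS1, all on the opposite strand. Of 8 counted neighbours, TCP1 and MMAB included, 7 could be tested at 12 h. In MB468, 2 were called higher and 5 lower, against 34.6% and 36% of all genes. In MB468res-R8, 3 were called higher and 2 lower, against 32% and 29.7%. The other members, PMVK (chromosome 1, 154924740 to 154936719), MVD (chromosome 16, 88651935 to 88663161) and FDFT1 (chromosome 8, 11795573 to 11839395), share at most 4.27% of their exons with another gene.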

How the data were processed

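RNA was measured in 24 libraries of the 8 groups. Per the labels and the study's methods, poly(A) RNA was made into libraries with a kit that does not mark strand, spike-in RNA was added, and the authors aligned single-end reads with HISAT2 2.1.0 to GRCh38 joined with the spike-ins and counted them per gene with featureCounts (Subread 1.5.3). The deposited file holds raw counts (26645 gene entries, 92 spike-ins), used unchanged after 4 repeated symbols were dropped. The authors' table of normalized values and their table of fold changes and p-values were not used.

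Counts were filtered with filterByExpr (minimum count 10, minimum total 15) to 14739 genes, then scaled by TMM and fitted over all 8 groups with edgeR 4.0.16 (glmQLFit and glmQLFTest, robust; R 4.3.3). Comparisons were contrasts of group means, a line difference was the difference of 2 such contrasts, and p-values were Benjamini-Hochberg adjusted over all genes, with a threshold of 0.05. The code was checked on simulated data. RPKM used summed exon lengths of GENCODE v44. DESeq2 1.42.0, spike-in scaling, other filters, thinning, a replicate block and leaving out libraries were alternatives. All 9 members are named; of each list, at most 4 genes with the smallest adjusted p in MB468 at 12 h and a gene opposite to most of its list; and the 5 genes most like the members, except that results of some genes are not reported here. Members, lists and tests were chosen with earlier results of these data known.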

Additional observations from a re-analysis of the deposited data

Results flagged for a closer look

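A difference between the lines in the change from 0 h to 12 h in Met-Hcy+ medium was called for 7 members, in the test of the difference itself. On the log2 scale, MB468res-R8 minus MB468, it was 1.54 for HMGCS1, 1.42 for ACAT2, 1.15 for MVD, 1.06 for IDI1, 1.06 for FDFT1, 0.97 for MVK and 0.49 for FDPS. In each of these the decrease was smaller in MB468res-R8. Neither line had a 12 h group in Met+ medium, so time in culture and the medium cannot be told apart in these differences. Dixon's test for an outlying value was not applied, since each group held 3 libraries; the library that stood apart in RNAs without poly(A) tails, and the fits without each library, are described with the results.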

How the results depend on the processing

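The 3 comparisons at 12 h gave 486 values of single members over the alternatives, of which 485 kept their call and, where called, their direction; the exception was PMVK in MB468res-R8 with spike-in scaling. Over all 17 comparisons 2500 of 2610 values did so, 86 lost and 20 gained a call, and 4 turned sign with a call in either setting (values never called could change sign near 0). These 4 came with spike-in totals as library sizes, in MB468 at 2 h against 0 h (PMVK -0.40, IDI1 -0.326, GGPS1 -0.362) and at 2 h against 0.5 h (IDI1 -0.078). This scaling moved the median of all genes in that line by -0.415 at 2 h; the cause was not tested.

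Counts of called members moved by over 1.5 times as follows. In MB468 at 2 h against 0 h (0 called) they were 9 with spike-in totals, 2 with the spike-in factor as a covariate and 1 with only the groups compared, and 0 to 1 when 1 library was left out (1 without replicate 1 at 2 h). In MB468res-R8 at 0.5 h against 0 h (2 called) they were 0 with spike-in totals, 1 with the replicate block, with thinned counts and at an adjusted p under 0.01, 4 with only the groups compared, and 1 to 2 when a library was left out. MB468res-R8 against MB468 at 0.5 h (7 called) gave 3 with spike-in totals. For 2 h against 0.5 h, chosen after seeing the data, MB468 (3 called) gave 1 with spike-in totals and with only the groups compared and 2 to 3 when a library was left out; MB468res-R8 (4 called) gave 0 with spike-in totals, 2 without a filter, with thinned counts and at an adjusted p under 0.01, and 2 to 3 when a library was left out. The ratio of the highest to the lowest RPKM, 14, was 13.1 with the longest transcript. Of the 5 genes most like the members, Spearman's correlation kept 2 and the group means 1.

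The replicate numbers shared by the groups are not stated to mark a batch, and in no comparison were all 3 correlations of same-numbered libraries over 0.1 (mean over all groups -0.0198). The replicate block changed no other count of called members by over 1.5 times, with 8, 8 and 7 called in the comparisons at 12 h. At these depths the SE of a member's log2 change ran from 0.0369 (FDFT1) to 0.0744 (MVD).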
